A study of Mus musculus with 6 samples.

Results

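The mTOR kinase, its partner subunits, its upstream switch and the CD98 amino acid transporter were followed here through 10 genes, picked by symbol from the 23282 entries of the count files. They were Mtor, Rptor, Mlst8 and Rictor of the mTOR complexes, Tsc1, Tsc2 and Rheb of the switch, the S6 kinase gene Rps6kb1, and Slc7a5 and Slc3a2 of the transporter. Each symbol matched 1 entry, and all 10 passed the filter on low counts. The cells were regulatory T cells (Treg), a CD4 T cell subset that holds other immune cells in check, isolated from C57BL/6 spleen by flow cytometric sorting and left unstimulated. The groups were 3 IPMK cKO libraries, from mice with a conditional knockout of Ipmk, and 3 wild type libraries. The sources used here give neither the age of the mice, nor the driver of the deletion, nor the number of animals behind a library. The libraries are described as biological replicates, and nothing ties them to separate animals, so p-values cover the spread among these 6 libraries, part of which may be technical.

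mTOR is a protein kinase that works in a pair of complexes. In complex 1 (mTORC1) it is joined by raptor, the product of Rptor, and drives protein synthesis and growth when amino acids and growth signals are present. In complex 2 (mTORC2) it is joined by rictor, the product of Rictor, and phosphorylates AKT. The TSC proteins switch off the small GTPase Rheb, which activates mTORC1 at the lysosome, and CD98 brings in the large neutral amino acids that mTORC1 senses. Treg need mTORC1 for their suppressive function in mice. The inositol phosphate kinase IPMK, which was deleted here, is known as a cofactor that binds mTOR and raptor. The comparison describes whether transcripts of this pathway differed between Treg with the deletion and wild type Treg.

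None of the 10 genes passed the test for a difference between IPMK cKO and wild type Treg. Rptor had the largest estimate above 0, at 3.07-fold higher mean level in IPMK cKO, and Slc7a5 the largest below 0, followed by Rheb and Slc3a2. By edgeR's quasi-likelihood test, with a threshold of 0.05 after adjustment over all genes, 0 members were higher and 0 lower, and each had an adjusted p of 0.9999. Over all 10475 genes tested edgeR called 0% in either direction, and 2.56% had an unadjusted p under 0.05, against 0 of the 10 members. DESeq2 and limma-voom also called 0 members, and over all genes they called 3 (0.0288%) and 0. The estimates were above 0 for 5 members and below 0 for 5, with a median log2 fold change (IPMK cKO over wild type) of 0.034. Over all genes tested the median was 0.03 and 51.8% were above 0. In bulk RNA, fewer cells of a type and less RNA per cell cannot be told apart.

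Total counts were 8363324 to 8980395 in IPMK cKO and 7464546 to 8246993 in wild type libraries, and the ribosomal RNA precursor Rn45s took 16.8% to 32.1% of them. Ipmk had 3, 21 and 0 counts in IPMK cKO replicates 1 to 3, against 129, 77 and 99 in wild type replicates 1 to 3. Since no source used here says which part of Ipmk was deleted, these 3′ tags describe how abundant the transcript was. The edgeR log2 fold change of Ipmk was −3.51 (SE 1.75). The deleted gene itself was not called (edgeR adjusted p = 0.9999, DESeq2 adjusted p = 0.999), so a gene not called here may still differ. In a principal component analysis IPMK cKO replicate 1 lay alone on component 1 (38.7% of the variance), and component 2 (24.2%) ran between wild type replicate 1 at one end and IPMK cKO replicate 3 at the other. The 6 Treg and T cell markers summed to 1900 to 2360 CPM (counts scaled to a common library size) in IPMK cKO and 2070 to 2910 CPM in wild type. Foxp3, the transcription factor of the lineage, was 72.0 to 85.1 CPM in IPMK cKO but 10.3, 80.6 and 29 CPM in wild type replicates 1 to 3. Cd4 was 296 to 451 CPM in IPMK cKO and 374 to 441 CPM in wild type. The B cell markers summed to at most 14.2 CPM, the CD8 T cell markers to 12.2, the myeloid markers to 6.29 and the NK cell markers to 7.94 CPM in any library, and Cd8a, Cd14 and Ncr1 had no count. The erythroid and platelet markers summed to at most 16.6 CPM in IPMK cKO and 55.3 CPM in wild type, where replicate 2 held most. The proliferation markers Mki67 and Top2a summed to 54.5 to 87.5 CPM in IPMK cKO and 83.3 to 161 CPM in wild type. Whether these differences between libraries played a part in the values below was not tested.

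Levels are CPM on library sizes scaled by TMM, which corrects for differences in composition. Each tag marks the 3′ end of a transcript. Mtor, the kinase of both complexes (ENSMUSG00000028991, chr4:148448611-148557683, plus strand, mm10), had 13.1, 21 and 19.9 CPM in IPMK cKO replicates 1 to 3, against 39.7, 17.1 and 13.9 CPM in wild type replicates 1 to 3. The groups overlapped, and wild type replicate 1 alone lay far above the other 5 libraries. The means were 18.0 ± 4.30 CPM in IPMK cKO and 23.6 ± 14.1 CPM in wild type (SD, n = 3 each), with a log2 fold change of −0.39 (SE 0.66). Without wild type replicate 1 the estimate turned to 0.22, so the direction rested on that library.

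Rptor encodes raptor, the scaffold that brings substrates to mTORC1 (ENSMUSG00000025583, chr11:119602905-119899576, plus strand). It had 5.21, 22.7 and 31.7 CPM in IPMK cKO replicates 1 to 3, against 2.53, 11.1 and 5.82 CPM in wild type replicates 1 to 3. IPMK cKO replicates 2 and 3 lay above every wild type library, while IPMK cKO replicate 1 lay within their range. The underlying counts were 37, 174 and 312 in IPMK cKO and 21, 81 and 56 in wild type, so the lowest library rested on few tags. The mean was 19.9 ± 13.5 CPM in IPMK cKO and 6.47 ± 4.31 CPM in wild type (SD, n = 3 each), and the log2 fold change was 1.62 (SE 0.98, 95% interval −0.54 to 3.77). The exact permutation test over the 6 libraries gave a two-sided p of 0.3, where 0.1 is the smallest that 3 against 3 libraries allow. The estimate was above 0 in 17 of 17 alternative settings and was called in 0 of them. It lay between 1.11 without IPMK cKO replicate 3 and 2.24 without wild type replicate 2. Tsc1, Tsc2, Rheb, Rps6kb1 and Slc3a2 also kept their direction in 17 of 17 settings, all of which reuse these libraries.

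The sequence before the Rptor start is shown because this gene had the largest estimate above 0 among the members. It is the 250 bases upstream of the RefSeq start, on the plus strand of GRCm38.p6 at chr11:119602655-119602904, and holds 37.6% G and C.

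Rptor upstream: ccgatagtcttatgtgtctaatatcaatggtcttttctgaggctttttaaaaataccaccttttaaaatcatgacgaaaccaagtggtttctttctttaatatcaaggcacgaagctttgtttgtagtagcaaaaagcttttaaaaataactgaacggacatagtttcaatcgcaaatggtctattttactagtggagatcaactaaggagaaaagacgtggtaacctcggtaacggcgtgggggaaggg

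The window held neither CACGTG, the E-box that Myc family proteins bind, nor TGATGNAA, a form of the element that ATF4 binds with C/EBP proteins, searched on both strands. Of the 32851 RefSeq promoter windows of this length, 6.02% held the E-box letters and 3.45% those of the ATF4 element. Of the 9 members with a window in the RefSeq table, 1 (Rheb) held the E-box letters and 0 held those of the ATF4 element. These are matches of letters only, and no binding was measured here.

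Mlst8 encodes a small subunit shared by both complexes (ENSMUSG00000024142, chr17:24473551-24479078, minus strand). It had 27.9, 11.9 and 26.9 CPM in IPMK cKO replicates 1 to 3, against 24.5, 16.0 and 30.8 CPM in wild type replicates 1 to 3. Both groups spanned nearly the same range, with the library numbered 2 the lowest of each. The log2 fold change was −0.098 (SE 0.62), and it turned to 0.18 without IPMK cKO replicate 2 and to 0.13 without wild type replicate 3. The last exon of Mlst8 overlaps Bricd5 on the opposite strand in GENCODE M21. Counting was not stated to use strand, so tags of that pair may not have been told apart.

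Rictor encodes the subunit that defines mTORC2 (ENSMUSG00000050310, chr15:6708379-6800401, plus strand). It had 106, 64.9 and 64.7 CPM in IPMK cKO replicates 1 to 3, against 40.4, 67.2 and 64.9 CPM in wild type replicates 1 to 3. Replicates 2 and 3 of both groups lay together, and both libraries numbered 1 lay apart in opposite directions. The mean was 78.5 ± 23.6 CPM in IPMK cKO and 57.5 ± 14.9 CPM in wild type (SD, n = 3 each), with a log2 fold change of 0.45 (SE 0.38). The estimate was 0.17 without IPMK cKO replicate 1, 0.25 without wild type replicate 1 and −0.028 without both.

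The ratio of Rptor to Rictor tags within a library does not depend on the scaling between libraries. It was 0.0493, 0.350 and 0.489 in IPMK cKO replicates 1 to 3, against 0.0625, 0.165 and 0.0897 in wild type replicates 1 to 3. The lowest ratio of all libraries was that of IPMK cKO replicate 1 and the highest were those of IPMK cKO replicates 2 and 3. On the log2 scale the mean ratio was 1.06 higher in IPMK cKO (−2.30 ± 1.79 against −3.36 ± 0.71 in wild type, SD, n = 3 each), and the exact permutation test gave p = 0.4, or 0.6 adjusted over the 2 ratios tested. With 1 library left out the difference lay between 0.43 on the log2 scale without IPMK cKO replicate 3 (exact permutation p = 0.8) and 2.09 without IPMK cKO replicate 1 (exact permutation p = 0.1, the smallest possible).

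**Figure D1:**
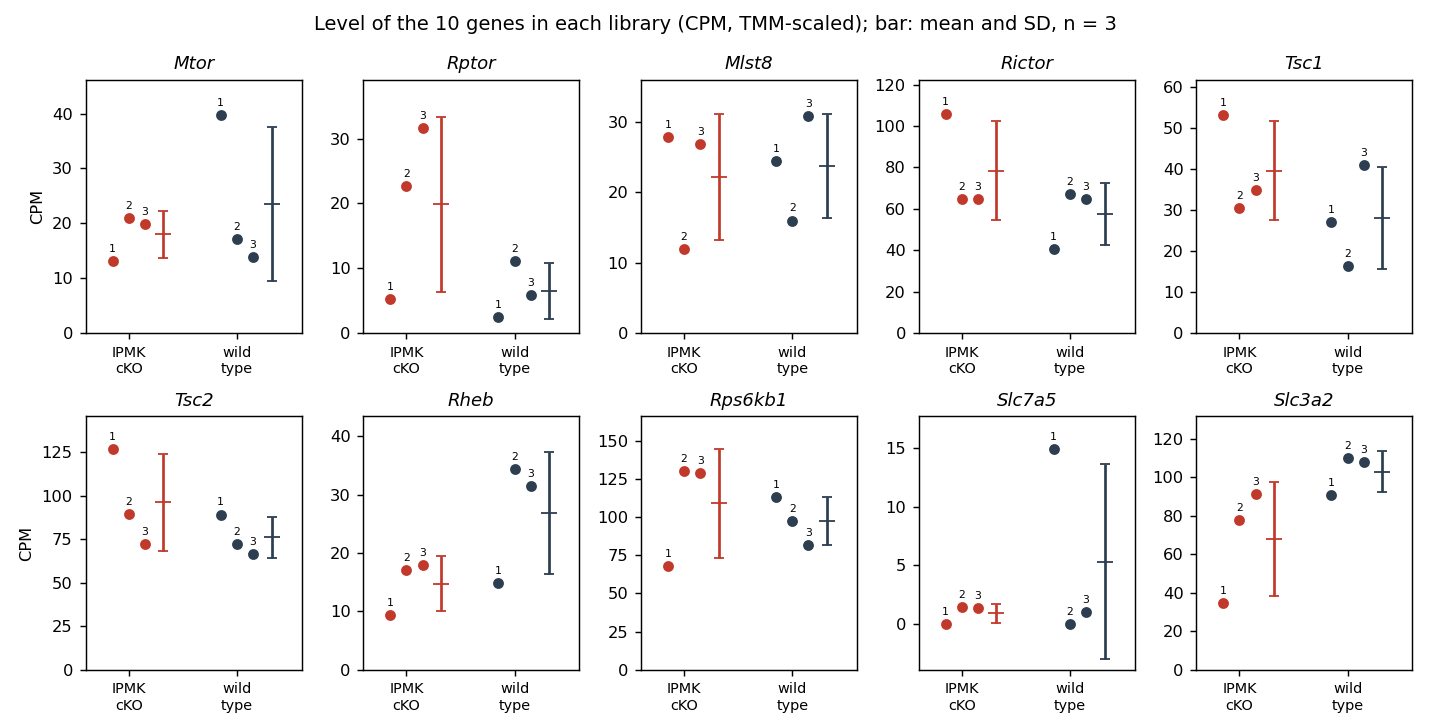
Level of each of the 10 genes in CPM (y axis, linear, a scale of its own in each panel) in the 3 IPMK cKO libraries (red) and the 3 wild type libraries (dark), with the replicate number above each point and the mean ± SD as a bar beside them. Rptor lay between 5.21 and 31.7 CPM in IPMK cKO and between 2.53 and 11.1 CPM in wild type, and the groups overlapped in all 10 panels.

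Tsc1 and Tsc2 encode hamartin and tuberin, which together hold Rheb in its inactive state. Tsc1 (ENSMUSG00000026812, chr2:28641228-28691167, plus strand) had 53.3, 30.6 and 34.9 CPM in IPMK cKO replicates 1 to 3, against 27.0, 16.3 and 41.0 CPM in wild type replicates 1 to 3. The highest was IPMK cKO replicate 1, but wild type replicate 3 exceeded both other IPMK cKO libraries. The log2 fold change was 0.50 (SE 0.52), between 0.20 and 0.87 with 1 library left out. Tsc2 (ENSMUSG00000002496, chr17:24595816-24632630, minus strand) had 127, 89.5 and 72.4 CPM in IPMK cKO replicates 1 to 3, against 89.3, 72.6 and 66.8 CPM in wild type replicates 1 to 3. The groups overlapped, with IPMK cKO replicate 1 again the highest, and the log2 fold change was 0.34 (SE 0.34, 95% interval −0.42 to 1.09). It was 0.080 without IPMK cKO replicate 1. The last exon of Tsc2 overlaps Pkd1 on the opposite strand, and tags of that pair may not have been told apart.

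The Tsc1 to Tsc2 ratio was 0.419, 0.342 and 0.482 in IPMK cKO replicates 1 to 3 and lay inside the wild type range, where it was 0.302, 0.224 and 0.614. The mean log2 ratio was −1.28 ± 0.25 in IPMK cKO and −1.53 ± 0.75 in wild type (SD, n = 3 each), a difference of 0.24 (exact permutation p = 0.6, and 0.6 adjusted over both ratios). The difference was −0.069 without wild type replicate 2.

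Rheb encodes the GTPase that switches on mTORC1 (ENSMUSG00000028945, chr5:24802823-24842624, minus strand). It had 9.29, 17.0 and 18.0 CPM in IPMK cKO replicates 1 to 3, against 14.9, 34.3 and 31.4 CPM in wild type replicates 1 to 3. All IPMK cKO libraries lay below wild type replicates 2 and 3, but wild type replicate 1 fell among them. The mean was 14.7 ± 4.75 CPM in IPMK cKO and 26.9 ± 10.5 CPM in wild type (SD, n = 3 each), and the log2 fold change was −0.86 (SE 0.65, 95% interval −2.30 to 0.57; exact permutation p = 0.3). It stayed below 0 in 17 of 17 alternative settings and was called in 0 of them. It ran from −1.16 without wild type replicate 1 to −0.62 without IPMK cKO replicate 1. Tsc1, Tsc2 and Rps6kb1 kept their direction in 17 of 17 settings too, so the tally does not set Rheb apart.

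The site with the E-box letters is shown since Rheb was the member that held them. It lies 96 bases before the RefSeq start, on the minus strand of GRCm38.p6 at chr5:24842440-24842469, and falls in the first exon of Rheb in GENCODE M21, whose start lies further upstream. Capitals mark the E-box letters.

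Rheb site: gccgcgcgcggtCACGTGggtgtgttgttg

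Rps6kb1 encodes S6 kinase 1, which mTORC1 phosphorylates to promote translation (ENSMUSG00000020516, chr11:86498871-86544805, minus strand). It had 68.1, 130 and 129 CPM in IPMK cKO replicates 1 to 3, against 113, 97.4 and 81.5 CPM in wild type replicates 1 to 3. IPMK cKO replicate 1 was the lowest library and IPMK cKO replicates 2 and 3 the highest, with wild type between them. The mean was 109 ± 35.6 CPM in IPMK cKO and 97.3 ± 15.7 CPM in wild type (SD, n = 3 each). The log2 fold change was 0.17 (SE 0.35, 95% interval −0.60 to 0.94), moving to 0.41 when IPMK cKO replicate 1 was left out and to 0.0010 when IPMK cKO replicate 2 was. The last exon of Rps6kb1 overlaps Rnft1 on the opposite strand, and tags of that pair may not have been told apart.

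**Figure D2:**
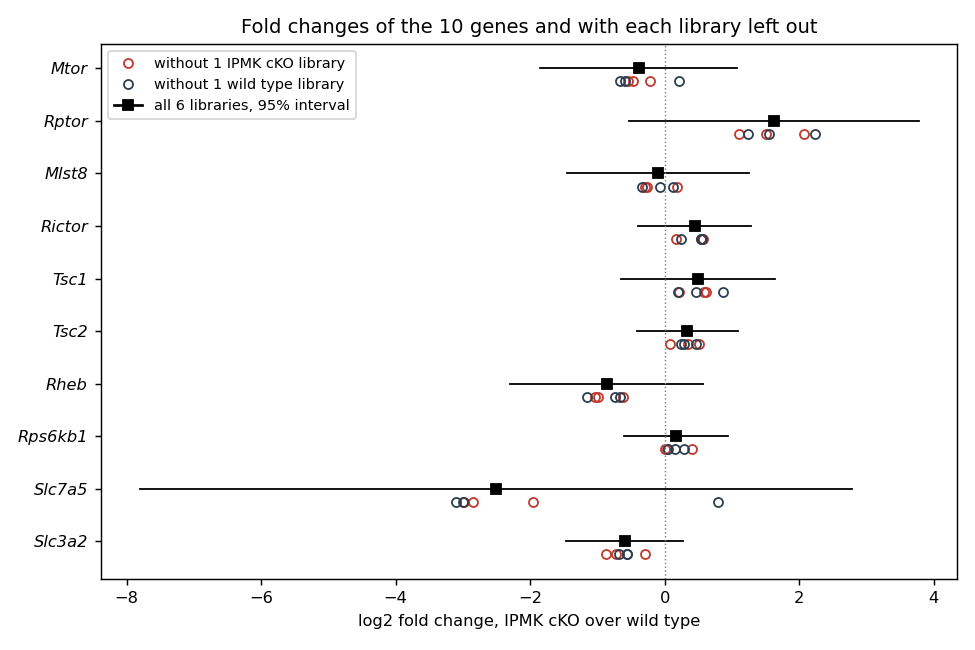
Log2 fold change of IPMK cKO over wild type (x axis) for each of the 10 genes, with all 6 libraries (squares, with 95% intervals from edgeR) and with 1 library left out in turn (open circles, red where an IPMK cKO library was left out and dark where a wild type library was). All 10 intervals include 0, and Slc7a5 moves to 0.80 without wild type replicate 1.

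Slc3a2 encodes the CD98 heavy chain, which carries several light chain transporters to the cell surface (ENSMUSG00000010095, chr19:8706882-8723369, minus strand). It had 34.9, 77.7 and 91.1 CPM in IPMK cKO replicates 1 to 3, against 90.6, 110 and 108 CPM in wild type replicates 1 to 3. The lowest by far was IPMK cKO replicate 1, and IPMK cKO replicate 3 exceeded wild type replicate 1, which made the groups overlap. The mean was 67.9 ± 29.4 CPM in IPMK cKO and 103 ± 10.6 CPM in wild type (SD, n = 3 each). The log2 fold change was −0.60 (SE 0.39, 95% interval −1.47 to 0.27; exact permutation p = 0.2). It was −0.29 without IPMK cKO replicate 1 and below 0 in 17 of 17 alternative settings, with 0 calls.

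The sequence before the Slc3a2 start is shown because, of the members with an estimate below 0, this gene had the smallest unadjusted p. It is the 250 bases upstream of the RefSeq start on the minus strand of GRCm38.p6, at chr19:8713898-8714147, with 53.6% G and C. That start is an internal one in GENCODE M21, where the longest transcript begins further upstream, so the window lies inside the gene span given above, and it overlaps no annotated exon. It holds neither of the motifs searched.

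Slc3a2 upstream: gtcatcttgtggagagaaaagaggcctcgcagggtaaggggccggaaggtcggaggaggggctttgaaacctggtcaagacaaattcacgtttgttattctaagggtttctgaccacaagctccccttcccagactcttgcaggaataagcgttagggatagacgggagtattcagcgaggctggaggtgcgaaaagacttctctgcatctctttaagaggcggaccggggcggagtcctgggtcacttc

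Slc7a5 encodes LAT1, the light chain of CD98 that carries leucine (ENSMUSG00000040010, chr8:121881150-121907694, minus strand). It had 0, 1.44 and 1.32 CPM in IPMK cKO replicates 1 to 3, against 14.9, 0 and 1.04 CPM in wild type replicates 1 to 3. The counts were 0, 11 and 13 in IPMK cKO and 124, 0 and 10 in wild type, so 1 wild type library carried nearly all wild type tags. A count of 0 allows up to 0.422 CPM in IPMK cKO replicate 1 and up to 0.410 CPM in wild type replicate 2 (3 counts, counting error only). The log2 fold change of −2.51 had an SE of 2.40, and without wild type replicate 1 it was 0.80. With all libraries the 95% interval ran from −7.81 to 2.79, and 5 of 6 libraries had at most 13 tags. Wild type replicate 1 was also the library with the highest Mtor and the lowest Foxp3, whose part in these values was not tested.

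The transcription factors ATF4 and Myc are known to raise transcription of the CD98 genes. Atf4 had 757, 145 and 157 CPM in IPMK cKO replicates 1 to 3, against 156, 204 and 153 CPM in wild type replicates 1 to 3. It lay between 145 and 204 CPM in 5 libraries and stood apart in IPMK cKO replicate 1, the library with the lowest Slc3a2 and no count of Slc7a5. The log2 fold change of Atf4 was 1.04 (SE 0.56), and −0.19 without that library. Myc had 0, 23.8 and 36.4 CPM in IPMK cKO replicates 1 to 3, against 47.3, 16.7 and 23.5 CPM in wild type replicates 1 to 3. It was highest in wild type replicate 1, the library with the most Slc7a5, and had no count in IPMK cKO replicate 1, where the limit is 0.422 CPM. Its log2 fold change was −0.54 (SE 1.21), and 0.038 without IPMK cKO replicate 1. Wild type replicate 2 also had no count of Slc7a5, with Myc at 16.7 CPM and the highest Slc3a2, at 110 CPM. Neither Atf4 nor Myc passed (edgeR adjusted p = 0.9999). Whether either factor had a part in the levels of Slc7a5 or Slc3a2 was not tested.

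**Figure D3:**
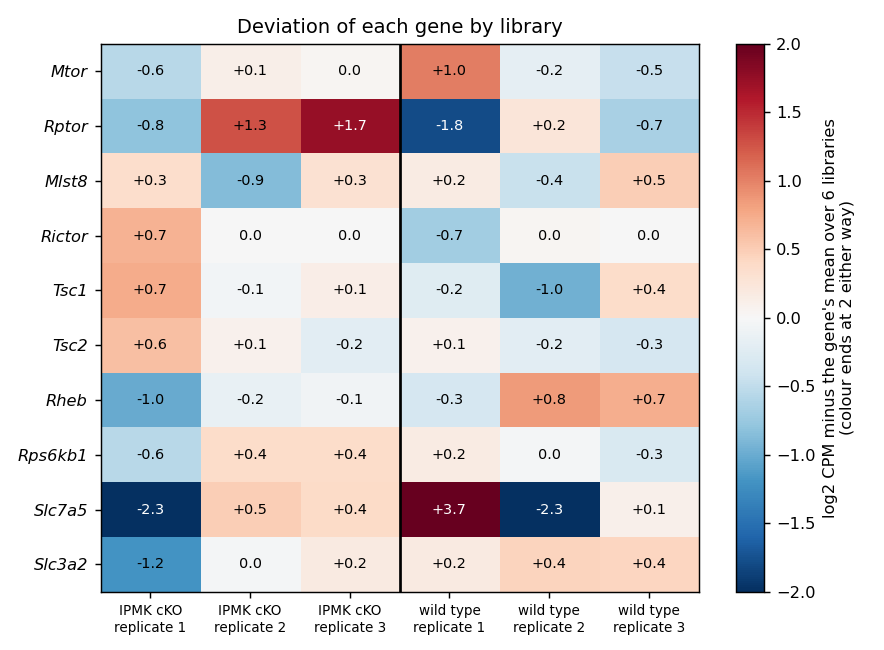
Deviation of each gene (rows) from its own mean over the 6 libraries in each library (columns, IPMK cKO left of the line and wild type right of it), in log2 CPM with a prior count of 2. IPMK cKO replicate 1 was 1.01 below the mean for Rheb and 0.55 below for Mtor, and 0.69 above for Rictor and 0.74 above for Tsc1.

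The members did not all shift 1 way in any library. IPMK cKO replicate 1 was the lowest of the 6 libraries for 4 members (Mtor, Rheb, Rps6kb1 and Slc3a2), was level with wild type replicate 2 at 0 for Slc7a5, and was the highest for 3 (Rictor, Tsc1 and Tsc2). Over all genes tested that library was the lowest for 29% and the highest for 29.2%. Groups that did not overlap were found for 0 of the 10 members, against 10.4% of all genes tested (4.74% higher and 5.66% lower in IPMK cKO). The fold between the highest and the lowest library was 1.90 for Tsc2 and 1.91 for Rps6kb1, the steadiest members, and 12.5 for Rptor. Of the 95% intervals, those of Tsc2 and Rps6kb1 were the narrowest and reached 1.09 and 0.94 on the log2 scale above 0.

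Around the members, 86 further genes of the pathway fell into 6 lists, of which 76 were tested. The median log2 fold change of these was −0.077, against 0.03 over all genes, with 36 estimates above 0 and 40 below, and 0 passed by edgeR or DESeq2. Deptor and Pik3r1 were the 2 genes with an unadjusted edgeR p under 0.05, which is 2 of 76 beside 2.56% of all genes tested. The groups did not overlap for 5 genes higher and 3 lower in IPMK cKO, which is 8 of 76 beside 10.4% of all genes tested. From each list the 3 genes with the smallest p are named below. A lack of overlap in such a gene partly repeats that choice and is no separate support.

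Among 7 tested subunits and assembly factors of the mTOR complexes, 2 had estimates above 0 and 5 below (median −0.43), and 0 passed. The median turned to 0.15 without IPMK cKO replicate 1 and to 0.052 without wild type replicate 3. Deptor, an inhibitory subunit that binds mTOR in both complexes (ENSMUSG00000022419, chr15:55112317-55259271, plus strand), had 0, 1 and 1 counts in IPMK cKO replicates 1 to 3, against 78, 13 and 107 in wild type replicates 1 to 3. In CPM that was 0, 0.131 and 0.101 in IPMK cKO, against 9.38, 1.78 and 11.1 in wild type, so the groups did not overlap. With 2 tags in IPMK cKO and 198 in wild type, the wild type level was 96.5 times that of IPMK cKO. The 95% counting interval of 26.4 to 803 covers counting error only. The spread between libraries enters edgeR's estimate, a log2 fold change of −6.31 (SE 2.20, 95% interval −11.15 to −1.47). The difference was not called, with an unadjusted edgeR p of 0.0153 (adjusted p = 0.9999) and a DESeq2 adjusted p of 0.221. An exact permutation test of its CPM gave p = 0.1, the least that 3 against 3 libraries can give. Only the wild type counts carried Deptor past the filter on low counts, and it was named for its small p. These values are therefore a description and support no conclusion about Deptor. Tti1, which assembles mTOR and related kinases, had 84.3, 46.1 and 45.2 CPM in IPMK cKO, against 29.4, 35.4 and 35.2 CPM in wild type, with no overlap (log2 fold change 0.81, SE 0.43). Its partner Telo2 had 0, 12.3 and 7 CPM in IPMK cKO, against 13.2, 13.3 and 15 CPM in wild type, also with no overlap (−1.10, SE 1.40), and the estimate was −0.53 without IPMK cKO replicate 1. Neither passed (edgeR adjusted p = 0.9999).

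The Rag GTPases and their lysosomal anchor Ragulator are the route by which amino acids recruit mTORC1. Of 12 tested genes for Rag GTPases, Ragulator and lysosomal amino acid sensing, the last with Slc38a9, Flcn and Fnip1, 3 had estimates above 0 and 9 below (median −0.21), and 0 passed. The Ragulator genes Lamtor5 and Lamtor1 had log2 fold changes of −1.28 (SE 0.70) and −0.51 (SE 0.34), and the Rag gene Rragd had 0.95 (SE 0.76), or 0.32 without IPMK cKO replicate 1. Lamtor5 was 18.7, 18.9 and 4.67 CPM in IPMK cKO, against 46.2, 18.9 and 37.7 CPM in wild type, so the groups met near the value of replicate 2. Of 15 tested genes of GATOR, KICSTOR, the sestrins and CASTOR, which restrain or relay that signal, 7 were above 0 and 8 below (median −0.12), and 0 passed. The KICSTOR gene Kptn had −1.81 (SE 1.25), between −3.81 without IPMK cKO replicate 2 and −0.92 without wild type replicate 1, and the GATOR genes Mios and Sec13 had 0.90 (SE 0.83) and −0.55 (SE 0.70). Mios and the GATOR gene Wdr59 (0.83, SE 1.28) had groups that did not overlap, and Wdr59 was singled out after its values were seen, with 0.241 CPM in wild type replicate 1 against 8.84 to 11.6 CPM in the other libraries.

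**Figure D4:**
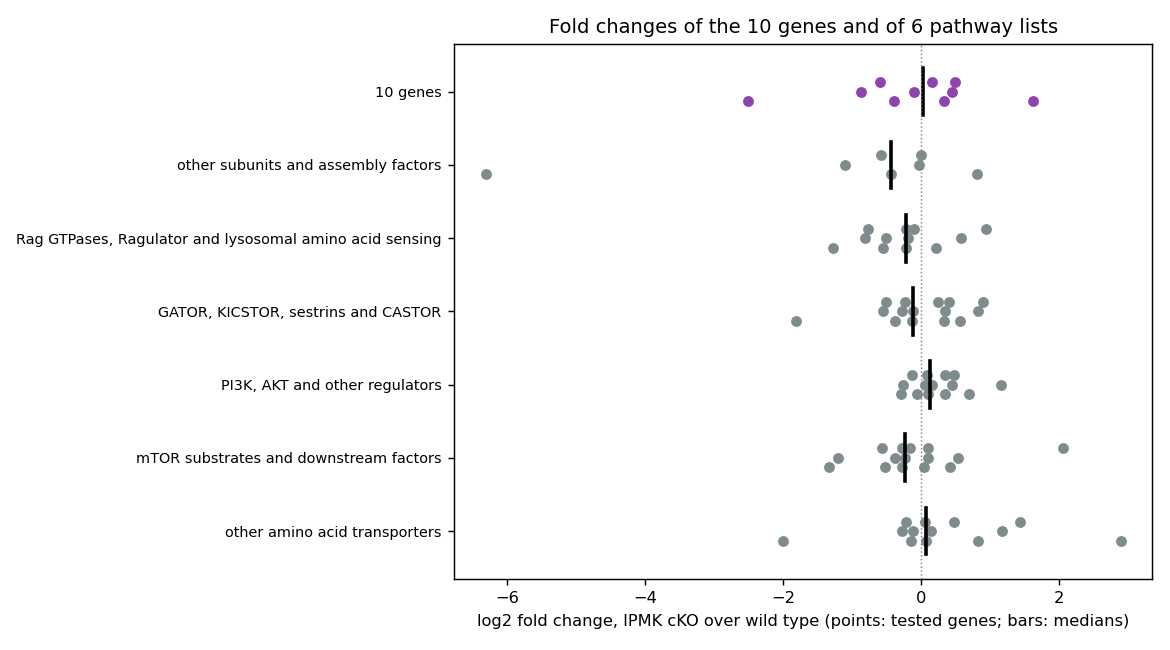
Log2 fold change of IPMK cKO over wild type (x axis) for the tested genes of the 10 members (purple) and of 6 pathway lists (grey), 1 point a gene, with the median of each list as a bar. Medians lie between −0.43 for the other subunits and assembly factors and 0.13 for PI3K, AKT and other regulators, and the point at −6.31 is Deptor.

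For the PI3K and AKT branch upstream of TSC and other regulators of the switch, 14 genes were tested, of which 10 were above 0 and 4 below (median 0.13), and 0 passed. The PI3K regulatory subunit Pik3r1 was 263, 239 and 188 CPM in IPMK cKO, against 113, 165 and 147 CPM in wild type, with no overlap. Its log2 fold change was 0.70 (SE 0.29), and edgeR's quasi-likelihood test gave an adjusted p of 0.9999. Stk11, which encodes the kinase LKB1, was 114, 97.5 and 97.9 CPM in IPMK cKO, against 71.2, 93.3 and 77.7 CPM in wild type, again with no overlap (0.35, SE 0.31). The Rheb relative Rhebl1 had 1.16 (SE 0.89), with 32.2 CPM in IPMK cKO replicate 1 and 0.52 without that library.

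Of 15 tested genes for substrates of the complexes and factors further downstream (Eif4e, Rps6 and Pdcd4), 6 were above 0 and 9 below (median −0.23), and 0 passed. Ulk1, the autophagy kinase that mTORC1 restrains, had 2.39, 31.5 and 15.6 CPM in IPMK cKO, against 51.7, 34.8 and 38.0 CPM in wild type, with no overlap (log2 fold change −1.33, SE 0.77, edgeR adjusted p = 0.9999). It was −0.83 without IPMK cKO replicate 1. Eif4e, the cap-binding translation factor, had −0.52 (SE 0.44). Rps6kb2, which encodes the other S6 kinase, had 119, 55 and 150 counts in IPMK cKO, against 0, 0 and 90 in wild type, and the groups overlapped only through wild type replicate 3 (2.05, SE 1.87). Its counts of 0 allow up to 0.361 CPM in wild type replicate 1 and 0.410 CPM in wild type replicate 2. The wild type counts alone would not have carried Rps6kb2 past the filter on low counts, and it was named for its small p. Its values are therefore a description and support no conclusion about Rps6kb2.

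Of 18 other amino acid transporter genes 13 were tested, with 8 above 0 and 5 below (median 0.079), and 0 passed. The cationic amino acid transporter Slc7a1 was 65.0, 47.2 and 62.9 CPM in IPMK cKO, against 31.6, 32.7 and 61.0 CPM in wild type, where replicate 3 lay with IPMK cKO (log2 fold change 0.48, SE 0.42). The lysosomal transporter Slc15a4 had 1.44 (SE 0.89), with 65.1 CPM in IPMK cKO replicate 1, and 0.15 without that library. Slc36a4 had 2.90 (SE 2.70), resting on 105 tags of IPMK cKO replicate 3.

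**Figure D5:**
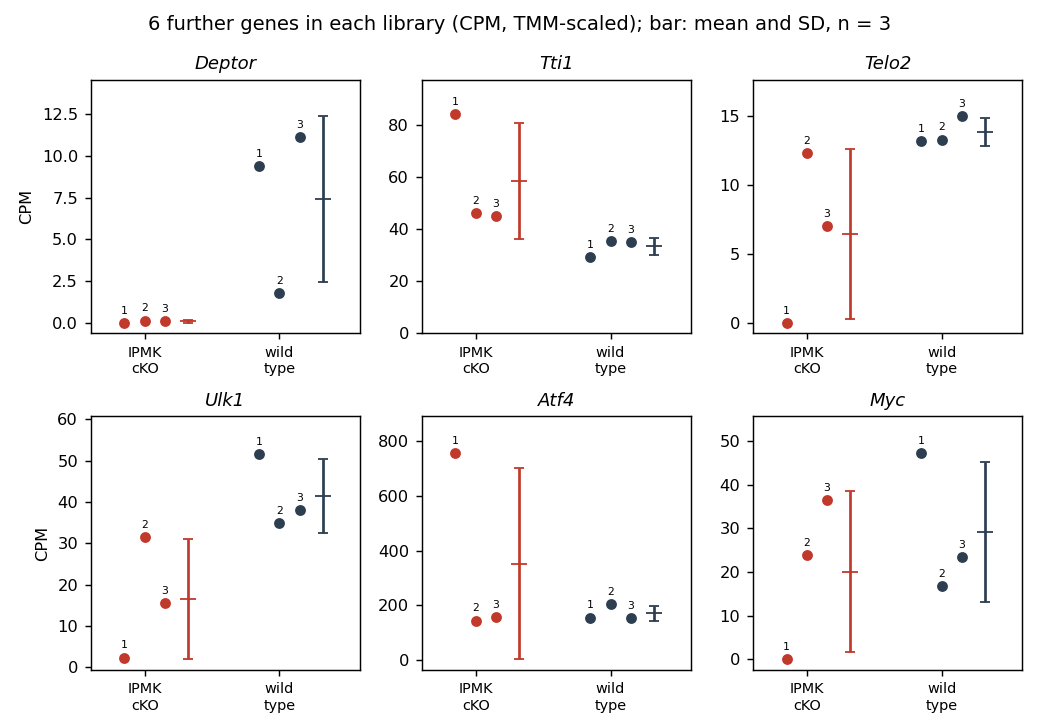
Level of 6 further genes in CPM (y axis, linear, a scale of its own in each panel) in the 3 IPMK cKO libraries (red) and the 3 wild type libraries (dark), with replicate numbers and the mean ± SD as a bar. Deptor was at 0 to 0.131 CPM in IPMK cKO against 1.78 to 11.1 CPM in wild type, while Atf4 and Myc stood apart in IPMK cKO replicate 1 at 757 and 0 CPM.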

How the data were processed

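RNA from sorted splenic Treg, 3 IPMK cKO and 3 wild type samples, was extracted with Trizol and made into Lexogen QuantSeq libraries, which read the 3′ end of transcripts, per the labels' protocols. Per the file headers, the authors deposited raw counts per gene symbol, 1 file a library, and each file lists 23282 entries of whole numbers. Per the submitters' processing notes, Bowtie2 and edgeR are named beside mm10 and hg19, with no role for any of them. No source used here gives the counter, annotation, strand setting or filters, and genes with near-identical copies are therefore uncertain. Symbols in more than 1 entry (35, in 79 entries) were kept apart, and none is a member.

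Groups came from the genotype labels. Counts were scaled by TMM, filtered by filterByExpr (minimum 10 counts, leaving 10475 genes) and tested with edgeR 4.0.16 (R 4.3.3; glmQLFit, glmQLFTest), p-values being adjusted over all genes by Benjamini-Hochberg with a threshold of 0.05. SEs are the estimate over the square root of F. CPM use the TMM-scaled library sizes. Single values and ratios were compared by exact two-sided permutation tests. Ratios needed 10 counts of both genes in every library, so Slc7a5 to Slc3a2 was not tested. Limits for a count of 0 take 3 counts and, like counting intervals, cover counting error only, since the reads carry no molecular identifiers. The depth was 7464546 to 8980395 counts a library. The procedure was tested on simulated counts.

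The members and lists were chosen with earlier results of these data known. Named were all members, Ipmk, Atf4, Myc, Foxp3, Cd4 and the 3 genes of each pathway list with the smallest p. Wdr59, Slc38a1, Eif4ebp2 and the other genes without a count or called under another setting were named after their values were seen. Castor1 and Castor2 were matched by older symbols. Coordinates are from GENCODE M21 on mm10 and sequences from RefSeq on GRCm38.p6. Alternatives were DESeq2 1.42.0, limma-voom (limma 3.58.1), a robust fit, other scalings and filters, removal of Rn45s, the replicate number as a block, and leaving out libraries.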

Additional observations from a re-analysis of the deposited data

How the results depend on the processing

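Under the 17 alternative settings 0 members were called in either direction. Over all genes the count called lower, 0 in the edgeR fit with all libraries, was 3 by DESeq2 (S100a6, S100a11 and Smpdl3b), 1 (Gdpd3) without IPMK cKO replicate 1, and 1 (again Gdpd3) without both libraries numbered 1. With 1 library left out it ranged from 0 to 1. The count called higher was 0 in each setting. The direction turned for Mtor (0.22 without wild type replicate 1, lowest −0.66; 0.40 without both libraries numbered 1), for Mlst8 (−0.34 to 0.18 with 1 library left out, 0.13 without wild type replicate 3), for Rictor (−0.028 without both libraries numbered 1) and for Slc7a5 (−3.10 to 0.80 with 1 library left out; 1.37 without both libraries numbered 1). Without both libraries numbered 1 it also turned for Sec13 (0.33), Slc15a4 (−0.17), Atf4 (−0.25), Myc (0.58), Eif4ebp2 (0.017) and Slc38a1 (0.22). Without IPMK cKO replicate 1 it turned for Atf4, Myc, Eif4ebp2 and Slc38a1. With 1 library left out these ranged from −0.19 to 1.40 (Atf4), −1.29 to 0.038 (Myc, whose estimate was 0 without wild type replicate 1), −0.77 to 0.17 (Eif4ebp2) and −0.65 to 0.28 (Slc38a1). The cause was not tested. With 1 library left out, the log2 ratio of Rptor to Rictor differed by 0.43 to 2.09 and that of Tsc1 to Tsc2 by −0.069 to 0.66.

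The replicate numbers were not taken as pairs, since no label ties a number to an animal or batch. Deviations of same-numbered libraries correlated at 0.0454, 0.0877 and 0.0265 across genes, and those of other pairs at −0.0609 to −0.00106. Each library thus correlated best with its own number, and whether such libraries share a batch is not known. With the replicate block 0 members were called, Slc7a5 turned to 0.060, and the median of the list of Rag, Ragulator and lysosomal sensing genes was −0.63 (−0.55 by limma-voom, −0.54 without IPMK cKO replicate 3). Scaling by total count alone moved the median of all genes to −0.17 and that of the members to −0.15. The median of the members, −0.15 to 0.27 over the settings, was also below 0 with upper quartile scaling (−0.016), by limma-voom (−0.0090) and without IPMK cKO replicate 1 (−0.067), IPMK cKO replicate 3 (−0.12) or wild type replicate 2 (−0.090). Medians of the pathway lists turned too. That of GATOR, KICSTOR, sestrins and CASTOR was above 0 in 8 settings, up to 0.29 without IPMK cKO replicate 1, and that of substrates and downstream factors was 0.050 without that library. That of PI3K, AKT and other regulators was −0.052 by total count, and that of amino acid transporters was −0.091 by total count, −0.18 by limma-voom and −0.16 with the replicate block. The median of other subunits and assembly factors was −0.037 with the filter of 5 CPM. No member changed direction under the other 3 scalings. The filter of 5 CPM removed Slc7a5. The spread between libraries and the low counts of Rptor and Slc7a5 limit what these data can show.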

Other observations

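A few abundant genes of the pathway were low in 1 IPMK cKO library alone. Slc38a1, a glutamine transporter, had 21.8, 215 and 192 CPM in IPMK cKO replicates 1 to 3, against 151, 158 and 191 CPM in wild type replicates 1 to 3. Its log2 fold change was −0.22 (SE 0.61). Eif4ebp2, a translation repressor that mTORC1 inactivates, had 7.60, 166 and 165 CPM in IPMK cKO, against 114, 169 and 158 CPM in wild type (−0.38, SE 0.75). Over the 76 tested genes of the 6 pathway lists, IPMK cKO replicate 1 was the lowest library for 38.2% and the highest for 23.7%, where over all genes tested these shares were 29% and 29.2%.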
